A study of Homo sapiens with 6 samples.

Results

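The data describe the earliest sampled response of NB4 cells to all-trans retinoic acid (ATRA): 2 of the 6 arrays of a time course, the array of untreated cells (0 h) and the array of cells kept for 4 h in 1e-06 M ATRA. NB4 is an established single line of human acute promyelocytic leukaemia with the PML-RARA fusion, and the labels give the untreated cells no treatment and name no vehicle. The same line was also sampled after 12, 24, 48 and 72 h in the same dose, and those arrays are used here only to show where a level seen at 4 h stood later. Members were all probe sets that the platform annotation gives to 1 gene. There were 41091 of them among 54675, for 19775 genes, of which 12933 reached the low-signal limit of 3.66 (log2) on at least 1 of both arrays. Each gene is shown by 1 probe set, and all levels and differences are on the log2 scale.

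ATRA binds retinoic acid receptors (RARA, RARB and RARG), which sit on DNA as partners of retinoid X receptors and exchange corepressors for coactivators when the ligand is bound. In promyelocytic leukaemia the PML-RARA fusion holds such genes silent, and ATRA at this kind of dose releases the block and leads to its breakdown. Genes that respond within hours are therefore studied as candidates for direct receptor targets, as distinct from the neutrophil programme that follows over days.

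The best known receptor element is a direct repeat of short half-sites spaced by 5 bases. The promoters of CYP26A1, the enzyme that degrades retinoic acid, and RARB, a receptor whose own gene answers retinoic acid, are shown because each holds such a repeat (capitals; CYP26A1 on the opposite strand). The CYP1A1 promoter is shown because CYP1A1 had one of the 3 largest differences at 4 h, and its capitals mark GCGTG, the core letters bound by the aryl hydrocarbon receptor. Each stretch is the 150 bases before the start site, from RefSeq (GRCh38.p14), at chr10:93073743-93073892 (plus strand), chr3:25428113-25428262 (plus strand) and chr15:74725529-74725678 (minus strand) in turn.
CYP26A1: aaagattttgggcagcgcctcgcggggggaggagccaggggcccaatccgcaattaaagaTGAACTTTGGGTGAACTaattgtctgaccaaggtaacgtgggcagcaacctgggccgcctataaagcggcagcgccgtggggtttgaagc
RARB: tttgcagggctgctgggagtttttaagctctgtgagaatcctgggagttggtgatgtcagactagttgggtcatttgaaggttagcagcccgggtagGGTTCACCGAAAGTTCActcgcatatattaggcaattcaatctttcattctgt
CYP1A1: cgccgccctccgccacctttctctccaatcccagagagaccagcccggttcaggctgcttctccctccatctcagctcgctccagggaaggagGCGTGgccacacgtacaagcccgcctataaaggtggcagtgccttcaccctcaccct

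Repeats were searched on both strands as pairs of any half-sites among AGGTCA with its variant AGTTCA and GGGTCA with its variant GGTTCA, in windows from 250 bases before to 50 bases after each start site. With a spacing of 5 bases, 31 of 35116 promoters in the RefSeq table held one (0.0883%). Among the 30 largest positive differences at 4 h, 24 genes had a promoter in the table and none held a repeat spaced by 1, 2 or 5 bases, and neither did any of 26 such genes among the 30 largest negative differences. Of 186 genes with a promoter that were 2-fold or more higher, only RAP1GAP2 held a repeat, spaced by 1 base. Over the 10377 analysed genes with a promoter, repeats spaced by 1, 2 and 5 bases occurred in 0.212%, 0.0385% and 0.0771%. Sets of 24, 26 or 186 genes are too small to be told apart from shares this low. GCGTG occurred in 14 of the 24 (58.3%) and 19 of the 26 (73.1%), against 56.4% of the 10377 analysed genes with a promoter. Over all genes past 2-fold it occurred in 52.7% of the 186 higher and 66% of 194 lower ones, so the higher side lay above the analysed genes among the 30 largest differences and below them in full. A match describes letters in this window alone.

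After 4 h, 236 genes were 2-fold or more higher than in untreated cells and 245 were 2-fold or more lower, which is 1.82% and 1.89% of the genes analysed. These shares are the reference for every list count below. There is 1 array a side, so no difference below has a replicate, an error or a p-value, and time in ATRA cannot be told apart from time in culture. Percentiles 2.5 and 97.5 of all differences were -0.90 and 0.89, and the median was 0.03. In RNA of whole cultures, fewer cells of a kind and less RNA per cell cannot be told apart. As a guide to technical spread, 24 probe sets of the spiked poly-A transcripts dap, lys, phe and thr differed by -0.57 to 0.39 between the arrays. Probe sets of the same gene differed from each other in their 4 h difference by a median of 0.29, and by 0.80 at percentile 90. Genes with a mean level between 5 and 7 crossed 2-fold most often (2.90% higher and 2.82% lower), and those above 9 least often (0.90% and 0.58%).

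**Figure D1:**
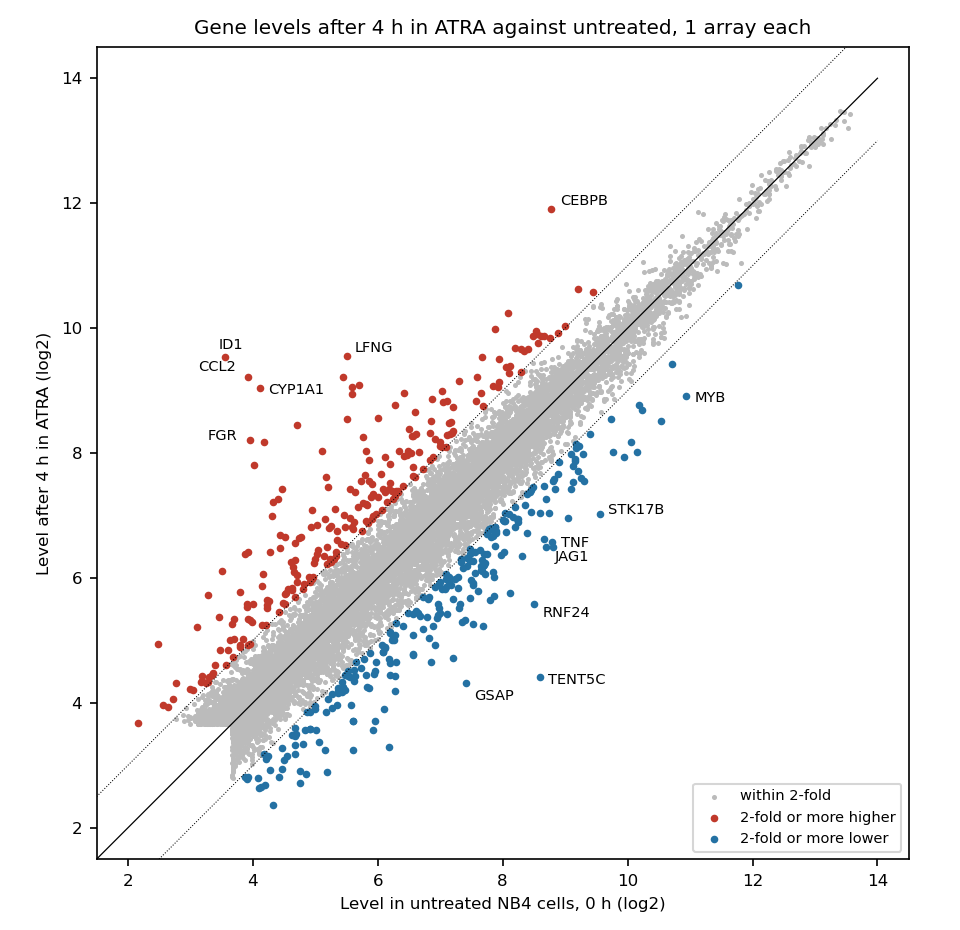
Level of each of the 12933 genes analysed in untreated NB4 cells (x axis, log2) and after 4 h in ATRA (y axis, log2), 1 array each. Red points are the 236 genes 2-fold or more higher and blue points the 245 genes 2-fold or more lower; dotted lines mark 2-fold and the solid line no difference. The empty corner at low left is the low-signal limit of 3.66.

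The arrays also differed in their spiked hybridisation controls. The bioC probe sets averaged 8.01 on the untreated array and 7.0 at 4 h, while bioB, bioD and cre were higher at 4 h by 0.57, 0.27 and 0.31. Setting the median of all 18 control probe sets equal would raise every 4 h value by 0.71 and give 3464 higher and 52 lower genes. That shift matches the pooled median alone. It moves bioB, bioD and cre, already higher at 4 h, further from their untreated levels. Setting the mean of bioB, bioD and cre equal without bioC would lower every 4 h value by 0.41, as a shift of -0.41, and give 103 higher and 889 lower genes. Of the 245 lower genes 52 were still 2-fold lower under the first shift, and of the 236 higher genes 103 were still 2-fold higher under the second. List medians are given below relative to the median of all genes, which removes the shift itself, but the shifts also alter which genes reach the low-signal limit (15328 and 12488 genes). RNA quality controls were alike: the 3' minus 5' difference was 0.26 and 0.14 for ACTB and 0.06 and 0.13 for GAPDH at 0 and 4 h.

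The cells carried promyelocyte markers on both arrays. Of 13 such genes, 11 were above the low-signal limit, with the azurophil granule enzyme MPO at 12.90 and 12.59 and the granule protease PRTN3 at 10.76 and 11.24 at 0 and 4 h. The probe set of ELANE, neutrophil elastase, stayed at 2.89 and 2.93, below the limit, and CD33 has no probe set of 1 gene. SPI1 was the 1 promyelocyte marker past 2-fold, higher by 1.72. Of 12 measured monocyte and macrophage markers 10 were below the limit, CD14 among them (3.37 and 3.41), and both that were above it, ADGRE1 and CX3CR1, stayed within 2-fold. Only 4 of 9 measured B cell, 3 of 6 erythroid and 6 of 10 fibroblast or epithelial markers were above the limit, and none of these differed by 2-fold. Of 13 measured T and NK markers 8 were above the limit, with differences of -0.68 to 1.33. Only PRF1, the cytotoxic pore protein, passed 2-fold (2.52-fold higher). Of 8 measured megakaryocyte markers 6 were above the limit, with differences of 0.10 to 1.16. Only THBS1, a matrix glycoprotein, passed 2-fold as measured (1.16 on the log2 scale, at least 1.59-fold higher).

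In the list of ID proteins and related helix-loop-helix factors, 3 of 19 passed 2-fold upward (ID1, ID2 and BHLHE40) and 3 downward (HES1, BHLHE41 and MYC). ID1, which binds basic helix-loop-helix factors and keeps them off DNA, went from 3.55 in untreated cells to 9.54 at 4 h and stood at 9.46, 8.57, 8.01 and 8.07 at 12, 24, 48 and 72 h. That is at least 58.7-fold at 4 h, counted from the low-signal limit, and the untreated array lies below all ATRA arrays. Of its relatives, ID2 was 2.14-fold higher (5.82 to 6.91), ID4 differed by 0.23 and ID3 stayed below the limit (2.94 and 2.62). CEBPB, a C/EBP factor of granulocyte and monocyte maturation, went from 8.78 to 11.90 (8.71-fold) and its later values of 11.72 to 12.08 were close to the 4 h level. CEBPE, needed for late granulocyte maturation, was 2.80-fold higher (8.19 to 9.68) and SPI1, the myeloid master factor PU.1, 3.29-fold (7.11 to 8.83). CEBPD was 2.80-fold lower (9.20 to 7.71), and CEBPA, CEBPG and CEBPZ differed by 0.51, -0.22 and -0.04. The family thus held members on both sides at this hour.

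Other regulators with large positive differences were SKIL, a corepressor of SMAD proteins (4.41 to 7.27, 7.26-fold), and IRF1, a factor of interferon and retinoid responses (5.77 to 8.25, 5.59-fold). BHLHE40, a transcriptional repressor, was 5.47-fold higher (5.17 to 7.62) and GFI1B, a repressor known from erythroid and megakaryocyte cells, 4.73-fold (4.44 to 6.68). For SKIL, IRF1, BHLHE40 and GFI1B a further probe set above the limit was also 2-fold or more higher. JUND of the AP-1 family was 2.01-fold higher.

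Of 12 analysed stem and progenitor genes 4 were 2-fold or more lower and none was higher, against 1.89% and 1.82% of all genes. MYB, which sustains progenitor growth, went from 10.94 to 8.92 (4.07-fold lower), and its second probe set above the limit differed by -1.65. MYB then read 10.17 at 12 h and 9.24 at 72 h, so 4 h was the lowest of the 6 arrays. ETV6, an ETS-family repressor, was 4.64-fold lower (8.79 to 6.58), with all 4 of its further probe sets in the same direction and 3 of these 2-fold or more. ZBTB16, the factor PLZF that is fused to RARA in a rare form of this leukaemia, was 4.58-fold lower (6.86 to 4.66). WT1 (9.13 to 7.53) and TERT, the telomerase catalytic subunit (7.30 to 5.52), were 3.05- and 3.45-fold lower. With MYB and ZBTB16 these made up the 4. The list median was -0.60 relative to all genes, or -0.40 with the median of all hybridisation controls set equal. GATA2 (-0.73) and LMO2 (-0.88) stayed within 2-fold.

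Homeobox and developmental factors were also among the 30 largest negative differences. EBF3 was 5.13-fold lower, IRX3 4.40-fold (10.15 to 8.02), HOXD13 4.26-fold (9.05 to 6.96) and HHEX 4.07-fold (8.66 to 6.63). All 3 HOXD13 probe sets were 2-fold or more lower, at -2.09, -1.99 and -1.63. In the list of C/EBP and granulocyte transcription factors, 7 of 19 were 2-fold lower (ETV6, MYB, ETS1, CEBPD, FLI1, RUNX2 and GFI1). Another 4 were higher (CEBPE, SPI1, GFI1B and CEBPB). The list median was -0.44 relative to all genes, or -0.18 with the median of all hybridisation controls set equal. AP-1 and immediate early factors had a median of -0.42 over 21 members, or -0.16 with that control median set equal. KLF4 was at least 2.14-fold lower, EGR1 3.01-fold and FOSL2 at least 2.55-fold, and JUND was the 1 member that was higher. MYC itself went from 11.77 to 10.69 (2.13-fold lower), and the other 26 ribosome biogenesis genes on its list stayed within 2-fold (list median -0.27).

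**Figure D2:**
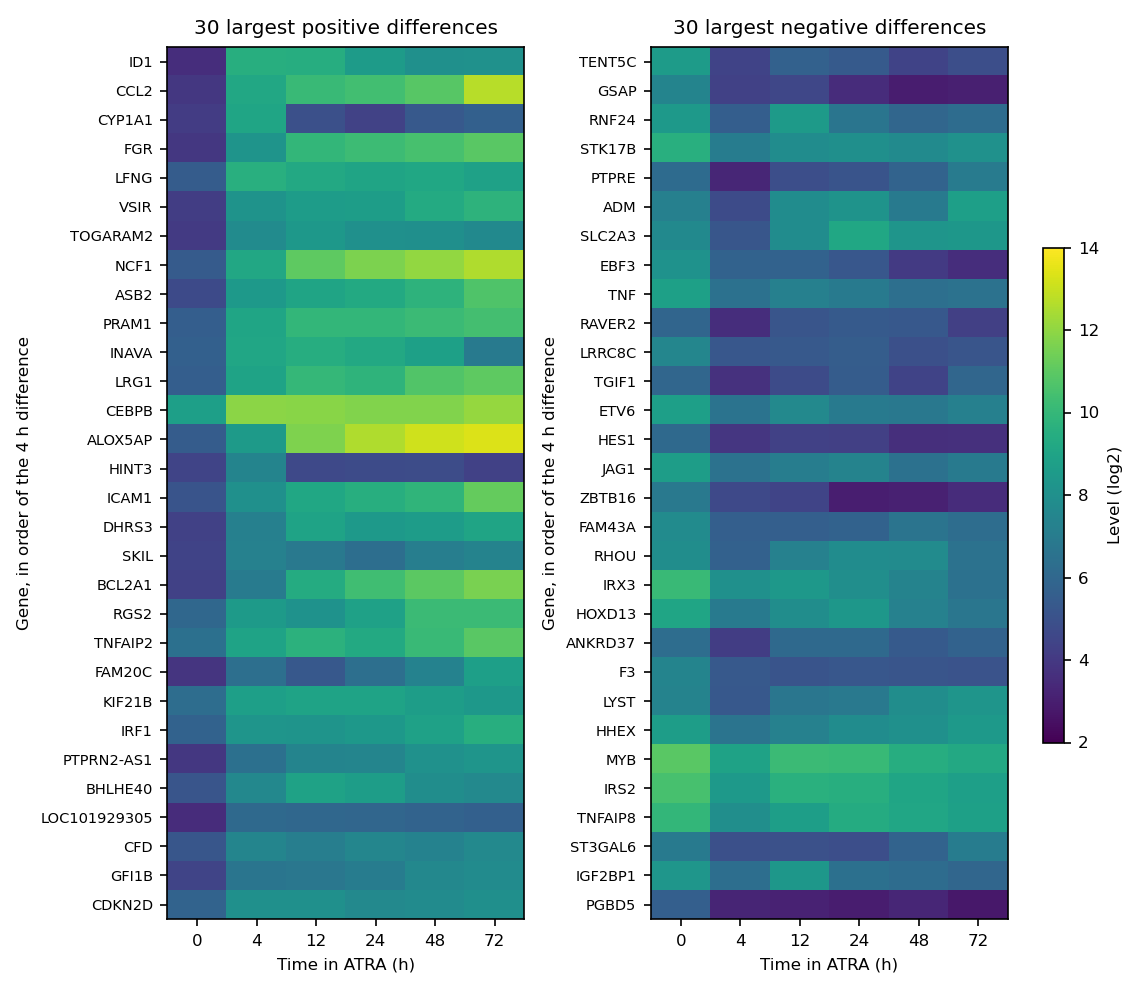
Level (colour, log2) of the 30 genes with the largest positive (left) and the 30 with the largest negative (right) 4 h difference, on each of the 6 arrays (columns, hours in ATRA), ranked with values below 3.66 set to 3.66. CEBPB stays between 11.72 and 12.08 after 4 h, ALOX5AP climbs from 8.54 to 13.38, and CYP1A1 and HINT3 stand out in the 4 h column alone.

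Genes of retinoid handling differed unevenly. DHRS3, which reduces retinal back to retinol, went from 4.32 to 7.21 (7.42-fold higher) and read 8.43 to 8.99 later. CYP26A1 differed by 0.60 (3.50 to 4.09) and stayed at or below 4.94 on all arrays. CYP26B1 differed by 1.35 but started below the limit (2.72 to 4.07, at least 1.33-fold), and another of its probe sets differed by -0.23. Of 11 analysed retinoid storage, transport and oxidation genes only DHRS3 and CYP26B1 passed 2-fold. The list median of 0.30 relative to all genes was 0.16 with the mean of bioB, bioD and cre set equal. It turns negative with a stricter low-signal limit and with another choice of probe sets.

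The receptors moved less. RARA differed by 0.87 (5.85 to 6.72), RARG by 0.41 and RARB by 0.21 (3.50 to 3.71), near the low-signal limit despite the repeat printed above. Of 17 analysed nuclear receptor genes none was 2-fold higher, and NR1D2, a clock-related repressor, was at least 1.36-fold lower (4.10 to 2.63, a measured difference of -1.47). None of 14 corepressor and coactivator genes and none of 12 PML body genes passed 2-fold, PML among them at -0.11 (7.40 to 7.29).

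Genes known as ATRA targets in promyelocytic cells formed the list with the highest median, 0.90 relative to all genes. That median was 0.51 with the median of all hybridisation controls set equal. The list was drawn up with such reports and earlier results of these data known, so its direction is no independent evidence. Of 25 analysed members 12 were 2-fold or more higher and 1, the death ligand TNFSF10 (TRAIL), was 3.73-fold lower (5.60 to 3.71). ASB2, a substrate receptor of ubiquitin ligases, was 13.5-fold higher in the probe set used and by 3.53 on the log2 scale in the other. PRAM1, an adaptor first found as a PML-RARA-regulated gene, went from 5.59 to 9.06 (11.1-fold). CD38, a NAD-consuming ectoenzyme, went from 5.73 to 7.55 (3.54-fold), and TNFAIP2 from 6.42 to 8.96 (5.81-fold). TGM2, tissue transglutaminase, was still low at 4 h (3.70 to 5.03, 2.50-fold) compared with its own 12.52 at 72 h.

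Kinases and adaptors of myeloid signalling had members far out on both sides. The SRC-family kinase FGR went from 3.95 to 8.21 (19.2-fold higher) and kept climbing to 10.93 at 72 h. SLA, an adaptor that restrains receptor signalling, was 4.00-fold higher in 1 probe set, with 1 further probe set also past 2-fold. PTPRE, a tyrosine phosphatase, went from 6.18 to 3.30 (at least 5.73-fold lower) and came back to 6.97 by 72 h. With PRAM1 above, these were the 4 members past 2-fold, and the other 26 of 30 were within it; the kinase LYN differed by 0.11. RGS2, which shortens G protein signals, was 5.89-fold higher (6.01 to 8.56).

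Secreted and surface proteins gave some of the largest values. The chemokine CCL2 went from 3.93 to 9.21 (38.9-fold higher), CCL4 from 4.27 to 6.41 (4.40-fold) and the cytokine OSM from 4.68 to 6.56 (3.66-fold). TNF went the other way, from 8.80 to 6.49 (4.94-fold lower), and stayed between 6.37 and 7.22 on later arrays. Of 24 analysed cytokines and chemokines these 3 were higher and TNF and TNFSF10 lower, and the list median did not differ from that of all genes (0.00). VSIR, the immune checkpoint receptor VISTA, was 16.0-fold higher (4.18 to 8.18) and by 3.68 on the log2 scale in its other probe set. ICAM1, an adhesion ligand, was 7.61-fold higher (5.11 to 8.04), and the integrin ITGAL 2.29-fold. The integrin ITGAM, a marker of neutrophil maturation, differed by only 0.52 (5.83 to 6.35).

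In the NF-kappaB list of 18 analysed genes, TNFAIP2 was the only member 2-fold higher. The only lower one, TNFAIP3, which edits ubiquitin chains to damp this pathway, was 2.49-fold lower (8.05 to 6.74). Tissue factor, F3, the trigger of clotting, went from 7.40 to 5.33 (4.22-fold lower) and read 5.08 to 5.26 later, and PLAUR, the urokinase receptor, was 2.38-fold lower (7.24 to 5.99). They were the only coagulation genes of 7 analysed past 2-fold.

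Effector genes of mature neutrophils had the second highest median of the lists. Of 15 analysed members 7 were 2-fold or more higher and none lower, with a median of 0.86 relative to all genes. That value was 0.23 with the median of all hybridisation controls set equal and 0.57 with the mean of bioB, bioD and cre set equal. ALOX5AP, the helper protein of leukotriene synthesis, went from 5.50 to 8.54 (8.25-fold) and BCL2A1, a survival protein, from 4.30 to 7.0 (6.49-fold). PADI4, which citrullinates histones, was at least 4.16-fold higher and PADI2 2.92-fold. The calcium-binding partners S100A8 (3.90 to 5.54) and S100A9 (5.16 to 6.95) were 3.12- and 3.47-fold higher at 4 h, far from their own 72 h levels of 13.13 and 12.61. CYP4F3 counted as the 7th member from a low start (2.17 to 3.68, at least 1.01-fold), so its difference rests on values near or below the limit.

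Of 7 analysed NADPH oxidase genes 2 were 2-fold or more higher, against 1.82% of all genes. NCF1, a cytosolic oxidase subunit whose probe set may also read near-identical pseudogenes, was 13.6-fold higher (5.45 to 9.21). RAC2 was 2.20-fold higher, while the membrane subunits CYBB (7.27 to 7.43) and CYBA (9.73 to 10.23) and the subunit NCF4 (8.04 to 8.32) were within 2-fold. In the azurophil granule list only CFD, complement factor D (4.75-fold), and SERPINB1, an elastase inhibitor (2.59-fold), passed 2-fold among 11 members, and MPO, PRTN3, AZU1 and CTSG stayed within it. Among 13 specific and gelatinase granule genes LRG1 was 10.3-fold higher (5.59 to 8.95) and CTSZ 2.09-fold. Adhesion genes had a median of 0.41 relative to all genes, with 2 of 15 past 2-fold.

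Several pathway lists had members far out on both sides. Of 17 analysed Notch genes 1 was 2-fold or more higher and 3 were lower, against 1.82% and 1.89% of all genes. Of 23 TGF-beta and BMP genes 3 were higher and 3 lower. The list medians were 0.11 and -0.06 relative to all genes. In the Notch list LFNG, a glycosyltransferase that tunes Notch receptors, went from 5.50 to 9.55 (16.5-fold higher) and then stayed between 8.88 and 9.26. The ligand JAG1 was 4.61-fold lower (8.70 to 6.50), the target repressor HES1 4.61-fold (6.10 to 3.90) and the ligand DLL1 2.58-fold. JAG1 has 5 further probe sets above the limit, of which 3 were lower by 2-fold or more and 2 differed by 0.24 and 0.36. NOTCH1 and NOTCH2 differed by 0.69 and 0.71. In the TGF-beta and BMP list SKIL (7.26-fold), SMAD9 (2.15-fold) and SMURF2 (2.03-fold) were higher, and TGIF1, a corepressor of the same pathway, was 4.73-fold lower (5.95 to 3.71), though its 1 further probe set above the limit did not share the direction. BAMBI (2.12-fold) and the receptor TGFBR1 (2.14-fold) were lower. SMAD6 (-0.12) and SMAD7, below the limit at 3.63 and 3.52, showed no such difference.

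TENT5C, a non-canonical poly(A) polymerase that stabilises mRNAs, had the largest negative difference of all genes. It went from 8.59 to 4.41 (18.1-fold lower), and read 5.71, 5.40, 4.40 and 4.88 at 12, 24, 48 and 72 h. Its other probe set went from 5.83 to 3.64. The relative TENT5A was 3.38-fold lower (9.77 to 8.01), TENT5B 2.25-fold higher (3.85 to 5.02) and TENT5D below the limit. GSAP, the gamma-secretase activating protein, went from 7.41 to 4.32 (8.52-fold lower), with -3.87 in its other probe set. STK17B, a kinase related to death-associated protein kinases, was 5.82-fold lower (9.56 to 7.02), and its 3 further probe sets differed by -1.67 to -2.54.

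Among death and cell cycle genes, BIK, a BH3-only protein, was 3.74-fold higher (4.16 to 6.06), CASP9 2.38-fold higher and the receptor FAS at least 2.64-fold lower. CDKN2D, an inhibitor of CDK4 and CDK6, was 4.65-fold higher (5.82 to 8.04) and remained between 7.65 and 8.04. TOB1, an antiproliferative regulator of mRNA decay, was 3.29-fold higher and cyclin CCND1 2.43-fold lower (5.48 to 4.20). None of 30 DNA replication genes and none of 26 mitosis genes passed 2-fold, with ranges of -0.39 to 0.74 and -0.53 to 0.89. Nor did any of 21 respiratory chain or 12 housekeeping genes, with ranges of -0.27 to 0.47 and -0.28 to 0.60.

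Of 20 analysed interferon-stimulated genes IFIT3 was 2.97-fold higher (4.01 to 5.58) and IFI6 2.12-fold (4.15 to 5.24), against 1.82% of all genes. Another 12 measured members were below the limit, among them IFI44, MX1 and OAS1. Beside IRF1, no IRF or STAT factor of 12 passed 2-fold. The immunoproteasome subunit PSMB9 was 2.65-fold higher (4.23 to 5.64) and the peptide trimmers ERAP2 and ERAP1 2.55- and 2.21-fold, which makes 3 of 15 antigen processing genes. The 3 further ERAP2 probe sets above the limit differed by 0.34, 0.55 and 0.29 and the further ERAP1 one by 0.65, so neither gene reached 2-fold outside the probe set used.

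Of 25 analysed cholesterol and fatty acid synthesis genes 4 were 2-fold or more lower and 1 was higher, against 1.89% and 1.82% of all genes. Their list median was -0.10 relative to all genes. Of 27 genes of ER stress and amino acid response 2 were higher and 2 lower. Among 19 oxidative stress genes and 12 heat shock genes 1 each was higher and 0 lower. INSIG1, the sterol sensor partner, was 3.66-fold lower (10.05 to 8.18), MSMO1 2.35-fold, FASN 2.14-fold and HMGCS1 2.13-fold, and SREBF1, the lipogenic factor, 2.56-fold higher. The further FASN probe set above the limit did not share its direction. DDIT3, the stress factor CHOP, was 3.53-fold higher (6.11 to 7.93), SQSTM1, the autophagy receptor p62, 3.44-fold (7.04 to 8.82) and the chaperone DNAJB1 2.28-fold, while VLDLR was at least 2.27-fold lower and XBP1 2.06-fold.

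**Figure D3:**
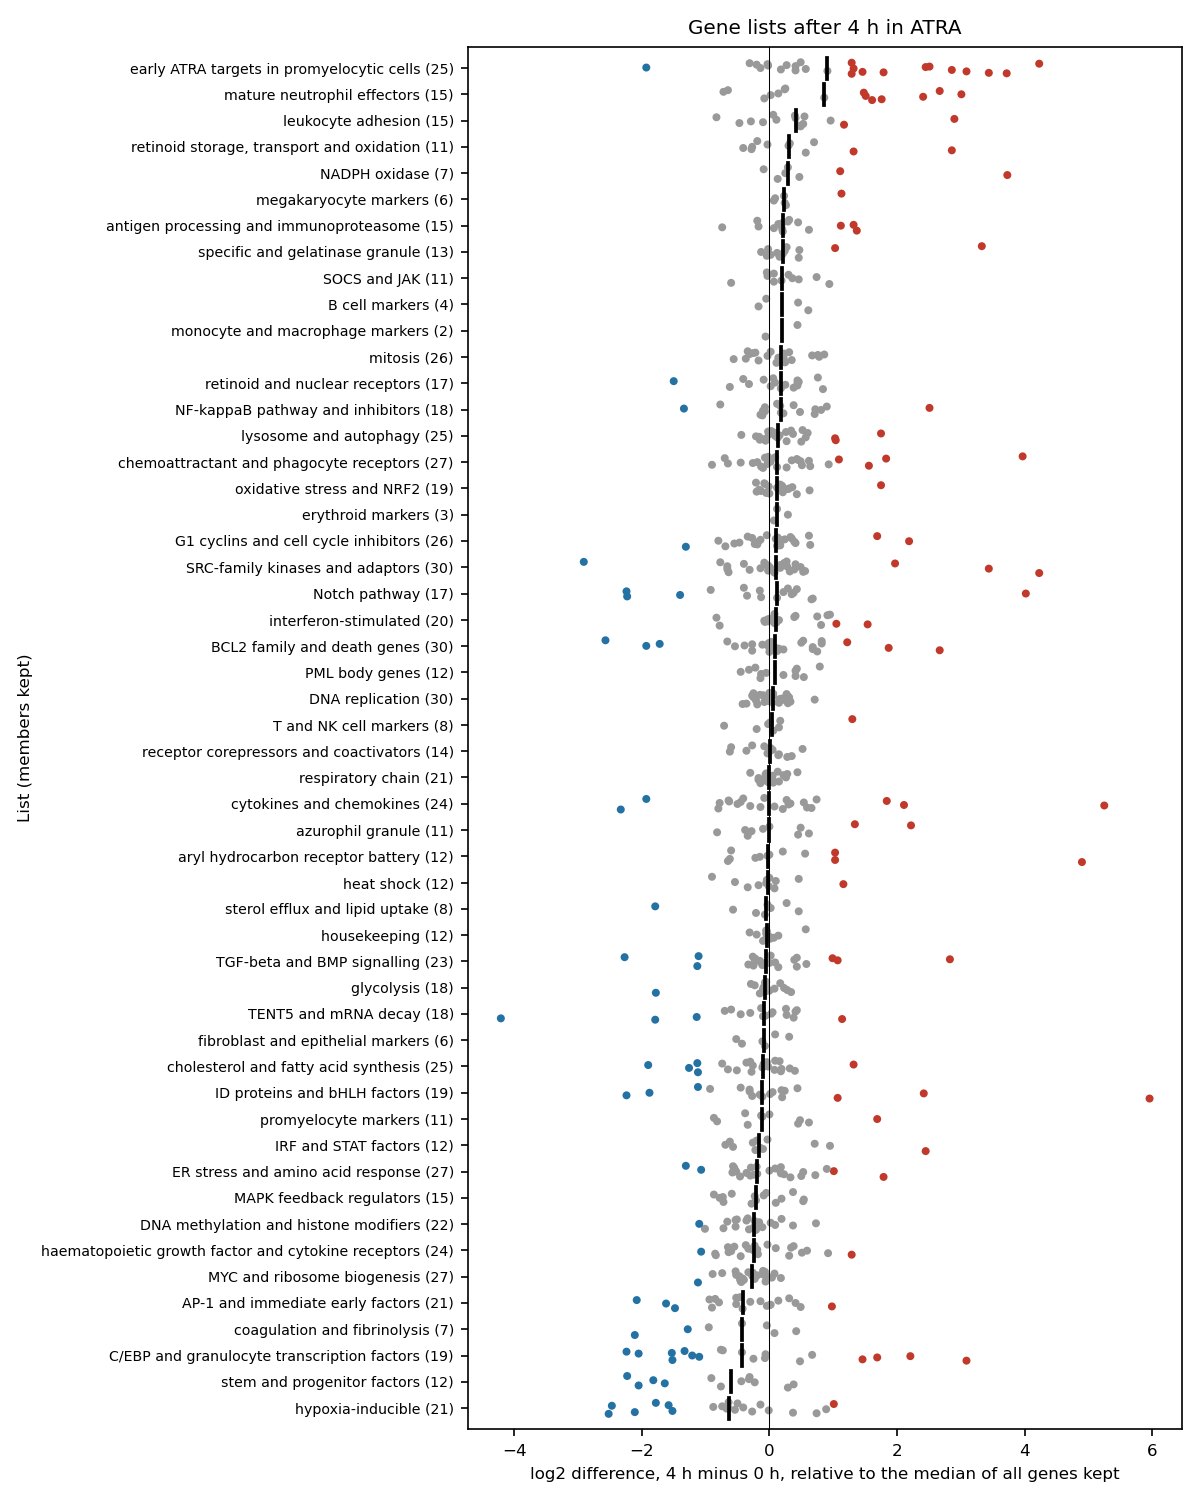
log2 difference (4 h minus 0 h, relative to the median of all genes analysed) of each list member above the low-signal limit, with the number of members in parentheses. Red and blue points are members 2-fold or more higher or lower as measured, and black bars are list medians, from 0.90 for early ATRA targets to -0.64 for hypoxia-inducible genes.

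Hypoxia-inducible genes had the lowest list median, -0.64 relative to all genes over 21 members. ADM, a vasodilator peptide, was 5.62-fold lower (7.21 to 4.72), SLC2A3, a glucose transporter, 5.43-fold (7.68 to 5.23) and ANKRD37 4.23-fold (6.27 to 4.19). The hexokinase HK2 was 3.36-fold lower in the probe set used but not in its 2 further ones, PFKFB3 2.94-fold and the oxygen sensor EGLN1 2.81-fold. DDIT4 was the 1 member that was higher (9.0 to 10.04, 2.05-fold), and VEGFA and NDRG1 differed by 0.77 and 0.92. Of 18 analysed glycolysis genes HK2 was the only one past 2-fold.

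Of these 6 lower hypoxia genes 5 were low at 4 h and at no other time. A level at least 2-fold below that of every other array, untreated included, was seen at 4 h for 22 genes (0.17% of those analysed). ADM (6.91 to 8.75 on the other arrays), SLC2A3 (7.68 to 9.13), ANKRD37 (5.39 to 6.27), PFKFB3 (6.19 to 7.40) and EGLN1 (7.70 to 8.06) were among the 22, as was CITED2, an inhibitor of hypoxia-inducible factor (8.06 to 8.74, against 7.04 at 4 h). The others included PTPRE, EGR1, FLI1, CCND1, LYST and MALAT1, a nuclear long RNA that went from 9.10 to 7.42. Over the 13594 genes above the limit on any array, 22 lay below all others at 4 h, against 1, 0 and 2 at 12, 24 and 48 h. Genes standing apart on the low side numbered 127 on the untreated array and 212 at 72 h. CITED2 and MALAT1 were chosen after their values were seen.

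A level at least 2-fold above every other array was seen at 4 h for 7 genes (0.0541%). Over the 13594 genes above the limit on any array, 7 stood above all others at 4 h, close to the 6 at 12 h. The counts were 1 and 2 at 24 and 48 h, 69 on the untreated array and 565 at 72 h. CYP1A1, the classic target of the aryl hydrocarbon receptor, went from 4.11 to 9.04 (30.5-fold higher) and was back at 4.93 at 12 h and 4.36 at 24 h. Of its neighbours in the aryl hydrocarbon receptor list, CYP1B1 was 2.08-fold higher (6.83 to 7.89) and then read 4.28 at 12 h, while CYP1A2 (-0.62), TIPARP (0.00), NQO1 (0.03) and AHRR (-0.19) were within 2-fold. LRRC25 was the third member past 2-fold but started below the limit (3.28 to 4.34, at least 1.60-fold). The list median was -0.02 relative to all genes. HINT3, a nucleotide hydrolase family member, was 7.80-fold higher (4.47 to 7.43, and 4.31 to 4.78 on the later arrays), but its further probe set above the limit differed by 0.57. FGFR3 (3.11 to 5.21), SMAD9, NKD2, CLK4 and MSANTD2 complete the 7.

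**Figure D4:**
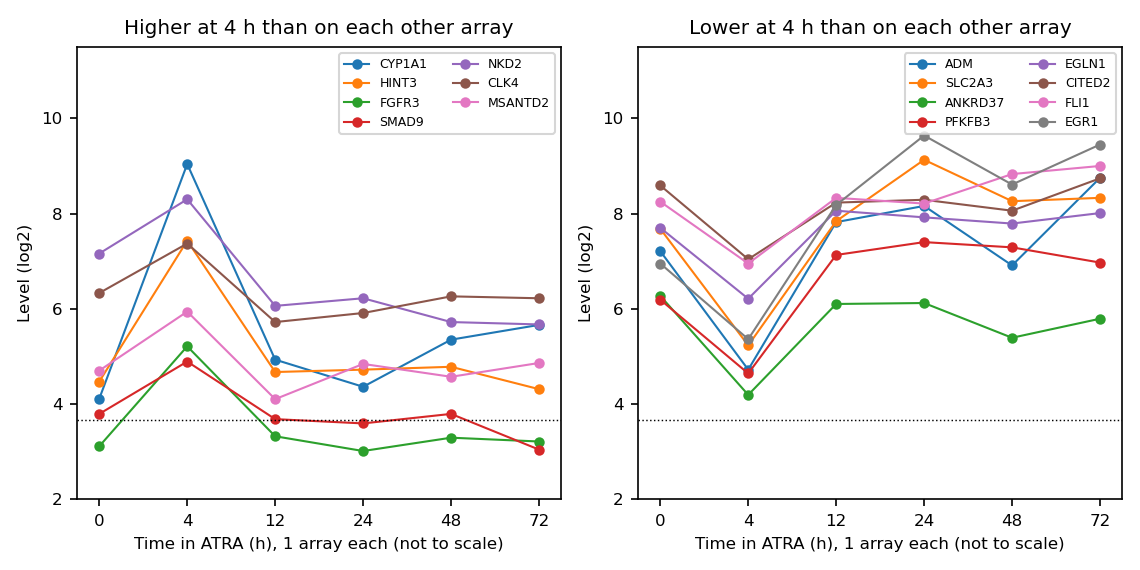
Level (log2) on each of the 6 arrays, 1 per time, of the 7 genes at least 2-fold higher at 4 h than on every other array (left) and of 8 of the 22 genes at least 2-fold lower (right). The dotted line is the low-signal limit of 3.66. CYP1A1 peaks at 9.04 and returns to 4.93 at 12 h, and ADM and SLC2A3 dip to 4.72 and 5.23 and are at 7.82 and 7.84 at 12 h.

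Some of the genes past 2-fold split the arrays as the bioC control did. bioC was high on the 0 and 12 h arrays (8.01 and 8.11) and low on the other arrays (6.88 to 7.17). The other hybridisation controls made the same split in reverse, by smaller amounts. bioB was at 6.54 and 6.57 on the 0 and 12 h arrays and 6.88 to 7.14 on the others. bioD was at 10.10 and 10.21 against 10.36 to 10.65, and cre at 11.95 and 12.08 against 12.26 to 12.48. Of the 236 higher genes 66 (28%) had all of their 4, 24, 48 and 72 h values above both of their 0 and 12 h values, a pattern that 9.97% of all genes analysed had. Of the 245 lower genes 78 (31.8%) had the reverse pattern, against 7.48%. Each pattern includes a 4 h value on the called side of the untreated one, which genes past 2-fold have by selection. The larger shares among them were therefore partly fixed in advance and do not measure a link with bioC. The part of the labelling or hybridisation step in these genes was not tested. Without them 170 higher and 167 lower genes are left.

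RNF24, a ring finger protein, went from 8.50 to 5.58 at 4 h (7.54-fold lower), was at 8.52 at 12 h and between 5.98 and 6.67 later. IGF2BP1, an mRNA-binding protein, gave 8.31, 6.35 and 8.34 at 0, 4 and 12 h, though its further probe set above the limit differed by only -0.04. TMED4 (8.12, 9.40 and 7.93), ATP6V1D (7.58, 8.83 and 7.80) and KIF5B (8.34, 9.64 and 8.47) gave the mirror image, and were chosen after their values were seen. SPI1, IRF1, CCL4, CFD, RGS2, DDIT3, SQSTM1, TENT5C, GSAP, TNF, MYB, ETV6 and HES1 also split the arrays this way. So did IFIT3, BIK, TOB1, CASP9, ERAP1, JUND, SMURF2, THBS1, IRX3, WT1, GFI1, ETS1, HK2 and VLDLR, among others. For some of them the 12 h value lay far from the untreated one: TENT5C was at 5.71 and GSAP at 4.57 at 12 h. The pattern was not seen for ID1, CCL2, FGR, LFNG, CEBPB, ASB2, PRAM1, STK17B or JAG1.

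**Figure D5:**
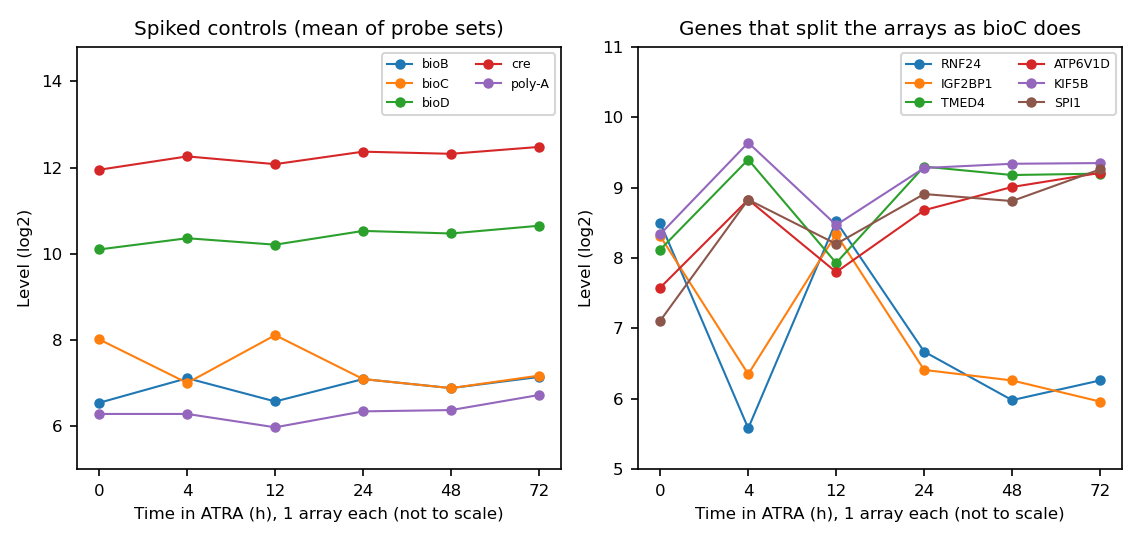
Left, mean level (log2) of the spiked bioB, bioC, bioD, cre and poly-A control probe sets on each of the 6 arrays. Right, 6 genes whose 0 and 12 h values lie on 1 side of all their 4, 24, 48 and 72 h values, as bioC does; RNF24 reads 8.50 and 8.52 at 0 and 12 h and 6.67 or less on the other arrays.

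Further probe sets of the same gene give a check of the probe set, though not of the RNA. Of the 236 higher genes 126 had a further probe set above the limit, and 182 of these 198 probe sets differed in the same direction, 73 of them by 2-fold or more. Among the lower genes 151 had 271 such probe sets, of which 236 shared the direction and 105 also reached 2-fold. None in either group was 2-fold in the opposite direction. Further probe sets above the limit shared the direction but did not reach 2-fold for PRF1, TNFAIP2, ITGAL, RAC2, CTSZ, SMURF2, CASP9, TOB1, IFIT3, SREBF1, CYP1B1 and CLK4 among the higher genes described above. The same held for CEBPD, RUNX2, FLI1, KLF4, FOSL2, DLL1, HMGCS1, EGLN1 and LYST among the lower ones. The values of ID1, CCL2, CYP1A1, FGR, NCF1, PRAM1, CEBPB and TNF rest on a single probe set. So do those of LRG1, ALOX5AP, DHRS3, BCL2A1, RGS2, CFD, SPI1, CEBPE, CD38, BIK, ADM, ZBTB16, IRX3, F3, MYC and PFKFB3, among others. CDKN2D, ANKRD37 and PTPRE had no further probe set above the limit.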

How the data were processed

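Per the labels, RNA of each culture was labelled with biotin and read on Affymetrix arrays, 1 per time. The authors deposited 1 log2 value per probe set. The submitters' processing notes list RMA (robust multi-array average) as the tool; version and build: not given in the sources used here. RMA aligns the arrays' distributions, so a shift of most transcripts would be hidden. Array medians were 3.64 and 3.67 at 0 and 4 h. Their number limits the precision.

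Probe sets with several genes (1801) or none (11777) and 62 controls were left out. Symbols follow the gene table of GRCh38.p14, used for names. For each gene, the probe set whose 6-array mean was highest stood for it, and it was kept when its 0 or 4 h value reached the median of all values, 3.66. Folds with an end below 3.66 use 3.66 for that end ("at least"). Named genes were drawn from the 30 largest differences each way, members of 52 gene lists past 2-fold, members of lists described singly, and a few fixed genes. Not every gene that met these rules is named in the text, and the choice among them was made with their values known. Other genes, and list members within 2-fold, were also chosen after their values were seen. The lists and the comparison were chosen with earlier results of these data known. Promoters come from RefSeq. The counting was tested on simulated data. Alternatives used limma 3.58.1 in R 4.3.3 (cyclic loess, quantile) and Python 3.11.15.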

Additional observations from a re-analysis of the deposited data

How the results depend on the processing

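The counts of higher and lower genes (236 and 245) stayed within 1.5 times under cyclic loess, quantile normalization of the 2 arrays, each of the 4 other low-signal filters, low values set to the limit, another representative probe set and no x_at probe sets. They depended on the scaling: the shift on all hybridisation controls gave 3464 and 52, and the shift without bioC gave 103 and 889. The mean of all probe sets left 168 higher and 144 lower genes, with 156 and 122 of them among the original calls. Counting from 1.5-fold gave 882 and 907, and from 3-fold 81 and 70. CYP26B1 turned to -0.23 with the probe set highest on the 0 and 4 h arrays. The median of the retinoid storage, transport and oxidation list turned to -0.17 with the filter at percentile 75, -0.10 with the filter on both arrays and -0.03 with that probe set choice, where fewer or other members enter. Of the other list medians of 0.23 or more in size none changed sign, though some moved by over 1.5 times under the shifts. These are given beside their lists, except coagulation, which went from -0.44 to -0.15 with the median of all hybridisation controls set equal. Over 66 lists, 754 of 789 alternatives counted as the same, 32 as moved and 3 as reversed, so moves were not limited to the shifts. Small changes of a median counted as the same even across 0. Monocyte and macrophage markers did so at 0.19 and, with the median of all hybridisation controls set equal, -0.01. Over 146 named genes, 1065 of 1167 alternatives counted as the same, 101 as moved and 1 as reversed. No paired analysis was possible because each time has 1 array. Signal near the limit of 3.66 bounds what can be said of ID3, RARB, CYP26A1 and CYP4F3.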

Other observations

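Gene families defined by symbol add values not described above, and the genes named here were chosen after their values were seen. Among 328 analysed zinc finger ZNF genes, 6 passed 2-fold upward and 4 downward, against 1.82% and 1.89% of all genes. Solute carriers had 7 higher and 7 lower of 250. SLC2A5, a fructose transporter, was higher by 2.10 (7.87 to 9.98) while the glucose transporter SLC2A3 was lower. Among 42 adhesion and orphan receptors GPR35 was higher by 1.70, ADGRG3 by 1.36 and GPR132 by 1.34, and GPR85 differed by -1.31. Of 540 analysed long intergenic and antisense RNA genes 7 were higher and 6 lower, with PTPRN2-AS1 at 3.93 and 6.41 at 0 and 4 h and 7.41 to 8.28 later. Cytosolic ribosomal proteins had 1 of 58 past 2-fold, mitochondrial ribosomal proteins 1 of 76, proteasome subunits 1 of 37 (PSMB9) and aminoacyl-tRNA synthetases 0 of 29, with a range of -0.44 to 0.60.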
